A study of Mus musculus with 5 samples.

Results

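Homing and chemokine receptor genes were examined at 8 loci, Ccr7, S1pr1, Klf2, Ccr2, Cxcr4, Cxcr6, Selplg and Cd44, chosen by name from 22350 annotated protein-coding genes. They encode receptors, adhesion molecules and a regulator that direct where T cells travel. The 8 genes were chosen with earlier results of these data known. For each gene, the window was the gene body with 20 kb added on each side, and a called region belonged to the gene when it shared at least 1 bp with the window. The windows spanned 463 kb in all and held 23 of the 9135 Runx3-bound regions and 37 of the 18992 H3K4me1-marked regions in the lists. All positions are given on the mouse genome mm9.

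The lists came from ChIP-seq, in which DNA attached to a protein is precipitated with an antibody and sequenced, on splenic CD8+ T cells (CD8-TC) of wild-type ICR mice. The cells had been activated through the T-cell receptor (TCR), with anti-CD3e and anti-CD28 antibodies, for 2 days. They were then kept for 4 days with IL-2 at 100 u/ml. The 5 libraries were 2 with anti-Runx3 antibody, 2 with non-immune serum (NIS), the control precipitation, and 1 with anti-H3K4me1 antibody. Every library came from activated cells, so no comparison between states of the cells was possible. Repeats had been joined before calling, and the lists carry no heights or read numbers. The values therefore have no replicate error and no test, and the reads behind a single region are unknown. At the lineage genes, Cd8b1 had 5 Runx3-bound and 9 H3K4me1-marked regions in its window, and Cd8a had 2 and 3. Cd4, which is silent in this lineage, had 1 and 4. The study reports Runx3 at a Cd4 silencer and at Cd8 enhancers in resting CD8-TC. Whether the Cd4 region found here is that silencer was not examined. Peak lists hold no expression, so they alone could not check the labelled cell type.

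Runx3, of the RUNX family, is a DNA-binding regulator that cytotoxic T cells depend on, and H3K4me1, histone H3 with 1 methyl group on lysine 4, marks enhancers, both active and poised. Lymphocyte traffic is set by a handful of surface molecules. CCR7 leads naive and memory T cells into lymph nodes along its chemokine ligands, S1PR1 senses the sphingosine 1-phosphate gradient by which they leave, and KLF2 is a zinc-finger factor that maintains S1PR1 in quiescent T cells. CCR2 and CXCR6 are receptors that guide cells to inflamed tissue and to sites such as the liver, CXCR4 holds cells in bone marrow niches through CXCL12, PSGL-1 (the product of Selplg) is the selectin ligand used for rolling on endothelium, and CD44 binds hyaluronan.

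The RUNX motif, taken as TGTGGT or TGTGGC or TGCGGT or TGCGGC on either strand, was searched in every Runx3-bound region. Regions are numbered along each gene in the direction of transcription, region 1 being the farthest upstream. The stretches shown are those outside UTRs in which motifs were most crowded. They come from at least 1 region of each gene except Cd44, whose only region lies in a 3′UTR. All are plus-strand mm9 sequence written 5′ to 3′, with the motif in capitals, so that ACCACA stands for TGTGGT read on the minus strand and so on. Those at Ccr7 come from the upstream region 2 (chr11:99027742-99027808), the start region 3 (chr11:99016457-99016510, upstream of the first exon) and the intronic region 4 (chr11:99009121-99009330).
Ccr7 region 2: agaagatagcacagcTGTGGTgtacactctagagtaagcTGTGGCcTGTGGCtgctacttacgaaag
Ccr7 region 3: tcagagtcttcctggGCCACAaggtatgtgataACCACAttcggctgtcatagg
Ccr7 region 4: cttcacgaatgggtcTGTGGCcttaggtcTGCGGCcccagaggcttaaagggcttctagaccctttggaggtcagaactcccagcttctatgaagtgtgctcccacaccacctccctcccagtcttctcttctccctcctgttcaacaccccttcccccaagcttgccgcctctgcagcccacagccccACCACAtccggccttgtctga

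In the start region of S1pr1 (chr3:115418294-115418462) every motif was of the TGCGGT kind or the TGCGGC kind, whereas its downstream region (chr3:115395451-115395598) held only TGTGGT. The Klf2 stretch (chr8:74855213-74855300) is shown because it paired a RUNX motif with TGAGTCA, the AP-1 motif, with 45 bp between them, and both are in capitals.
S1pr1 region 1: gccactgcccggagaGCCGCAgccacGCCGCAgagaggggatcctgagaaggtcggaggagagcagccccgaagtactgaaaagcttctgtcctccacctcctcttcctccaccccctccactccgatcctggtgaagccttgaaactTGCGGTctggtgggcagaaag
S1pr1 region 2: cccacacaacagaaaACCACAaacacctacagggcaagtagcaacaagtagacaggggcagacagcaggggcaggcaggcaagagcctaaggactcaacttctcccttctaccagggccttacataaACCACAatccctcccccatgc
Klf2 region 1: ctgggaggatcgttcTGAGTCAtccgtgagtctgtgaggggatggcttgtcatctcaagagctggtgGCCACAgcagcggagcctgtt

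Among the receptors of inflamed and niche homing, the stretches of Ccr2 region 3 (chr9:124025257-124025384, intron) and Cxcr4 region 2 (chr1:130504855-130505046, intergenic) held 3 motifs each, and that of Cxcr6 region 1 (chr9:123723499-123723742, intron of Fyco1) held 4, in 2 pairs that each had a gap of 21 bp. Selplg region 1 (chr5:114292354-114292395, intergenic part) contained abutting motifs, and its other motifs lay outside the part shown. Selplg region 2 (chr5:114282560-114282786, intergenic) held 4 in the stretch shown.
Ccr2 region 3: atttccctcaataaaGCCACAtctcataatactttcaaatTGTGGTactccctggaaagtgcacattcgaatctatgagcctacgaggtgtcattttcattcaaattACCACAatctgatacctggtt
Cxcr4 region 2: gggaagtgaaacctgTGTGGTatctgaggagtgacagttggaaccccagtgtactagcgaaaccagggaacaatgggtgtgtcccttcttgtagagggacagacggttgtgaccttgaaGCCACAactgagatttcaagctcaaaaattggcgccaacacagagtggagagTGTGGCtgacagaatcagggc
Cxcr6 region 1: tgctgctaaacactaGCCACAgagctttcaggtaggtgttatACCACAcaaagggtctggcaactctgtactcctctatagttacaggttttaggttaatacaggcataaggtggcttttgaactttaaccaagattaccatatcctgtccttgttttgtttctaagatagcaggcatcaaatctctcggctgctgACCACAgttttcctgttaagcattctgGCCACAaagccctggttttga
Selplg region 1: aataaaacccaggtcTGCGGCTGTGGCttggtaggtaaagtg
Selplg region 2: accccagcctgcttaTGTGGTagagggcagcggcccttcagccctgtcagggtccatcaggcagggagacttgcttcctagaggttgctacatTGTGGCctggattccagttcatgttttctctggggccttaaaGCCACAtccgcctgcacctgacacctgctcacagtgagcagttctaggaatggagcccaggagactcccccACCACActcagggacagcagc

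Each of the 8 genes had at least 1 Runx3-bound region in its window, compared to 34.2% of all protein-coding genes, and each had at least 1 H3K4me1-marked region, compared to 39.4%. At 7 of the 8 genes, Cd44 being the exception, at least 1 Runx3-bound region overlapped H3K4me1, which was the case at 17.8% of all genes. The median over the 8 genes was 2.5 Runx3-bound and 4.5 H3K4me1-marked regions, against medians of 0 for both over all genes. Among all genes that had any such region, the medians were 1 and 2. Because the 8 genes were chosen with earlier results of these data known, these counts are no evidence of an excess. Longer genes have wider windows, and the windows ranged from 42.6 kb at Klf2 to 131.0 kb at Cd44.

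The order by number of Runx3-bound regions was Ccr7 with 7, Ccr2 and Selplg with 4 each, Cxcr4 with 3, S1pr1 with 2, and Klf2, Cxcr6 and Cd44 with 1 each. As many or more were found at 0.26% of all protein-coding genes for Ccr7, at 2.19% for Ccr2 and Selplg, at 5.43% for Cxcr4 and at 13.6% for S1pr1. Of the 8 genes, 5 thus had 2 or more Runx3-bound regions, 4 had 3 or more, 3 had 4 or more and 1 had 7. With no replicate spread, it could not be said which neighbours in this order differ.

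**Figure D1:**
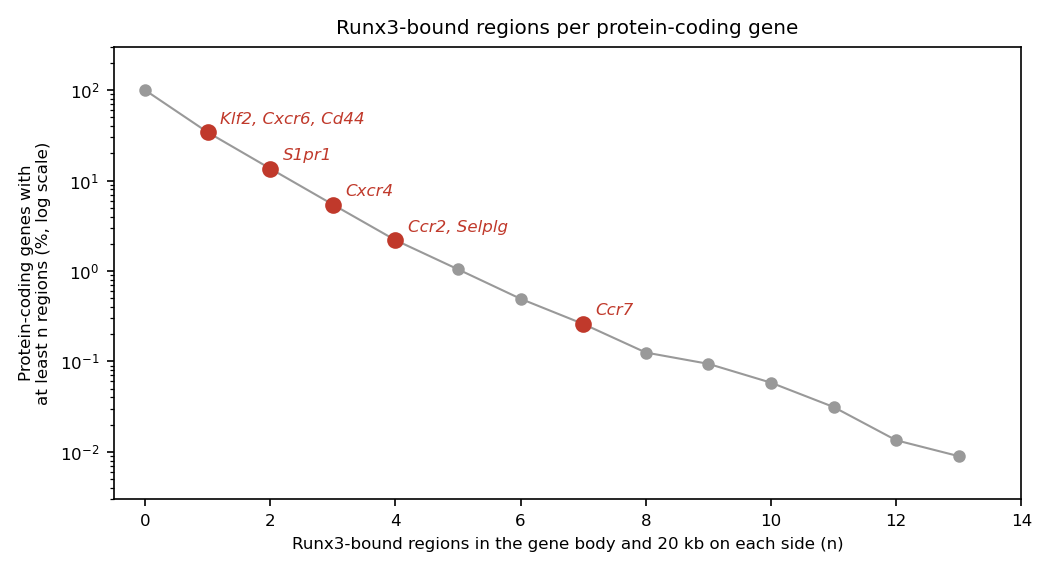
The x axis gives a number n of Runx3-bound regions in the gene body with 20 kb on each side, and the y axis, on a log scale, gives the share of the 22350 protein-coding genes with at least n regions, shown up to n = 13 (1 gene with 48 regions lies beyond the axis). Red points mark the 8 genes at their own n, and Ccr7, at 7 regions, is reached by 0.26% of genes.

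The cover by H3K4me1 gave another order. H3K4me1-marked regions covered 56.8% of the Ccr7 window, 32.8% at Cxcr6, 19.7% at S1pr1, 18.3% at Ccr2, 16.4% at Selplg, 11.8% at Cxcr4, 11.2% at Klf2 and 8.6% at Cd44. The value at Ccr7 ranked 1 of all 22350 protein-coding genes, with 55.5% at the next, and that at Cxcr6 ranked 97. The median of the 8 genes was 17.4%, against 4.37% among all genes with at least 1 H3K4me1-marked region. Cxcr6 was therefore among the most widely marked of these genes while having a single Runx3-bound region, and Cxcr4 had 3 Runx3-bound regions beside a single H3K4me1-marked one.

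**Figure D2:**
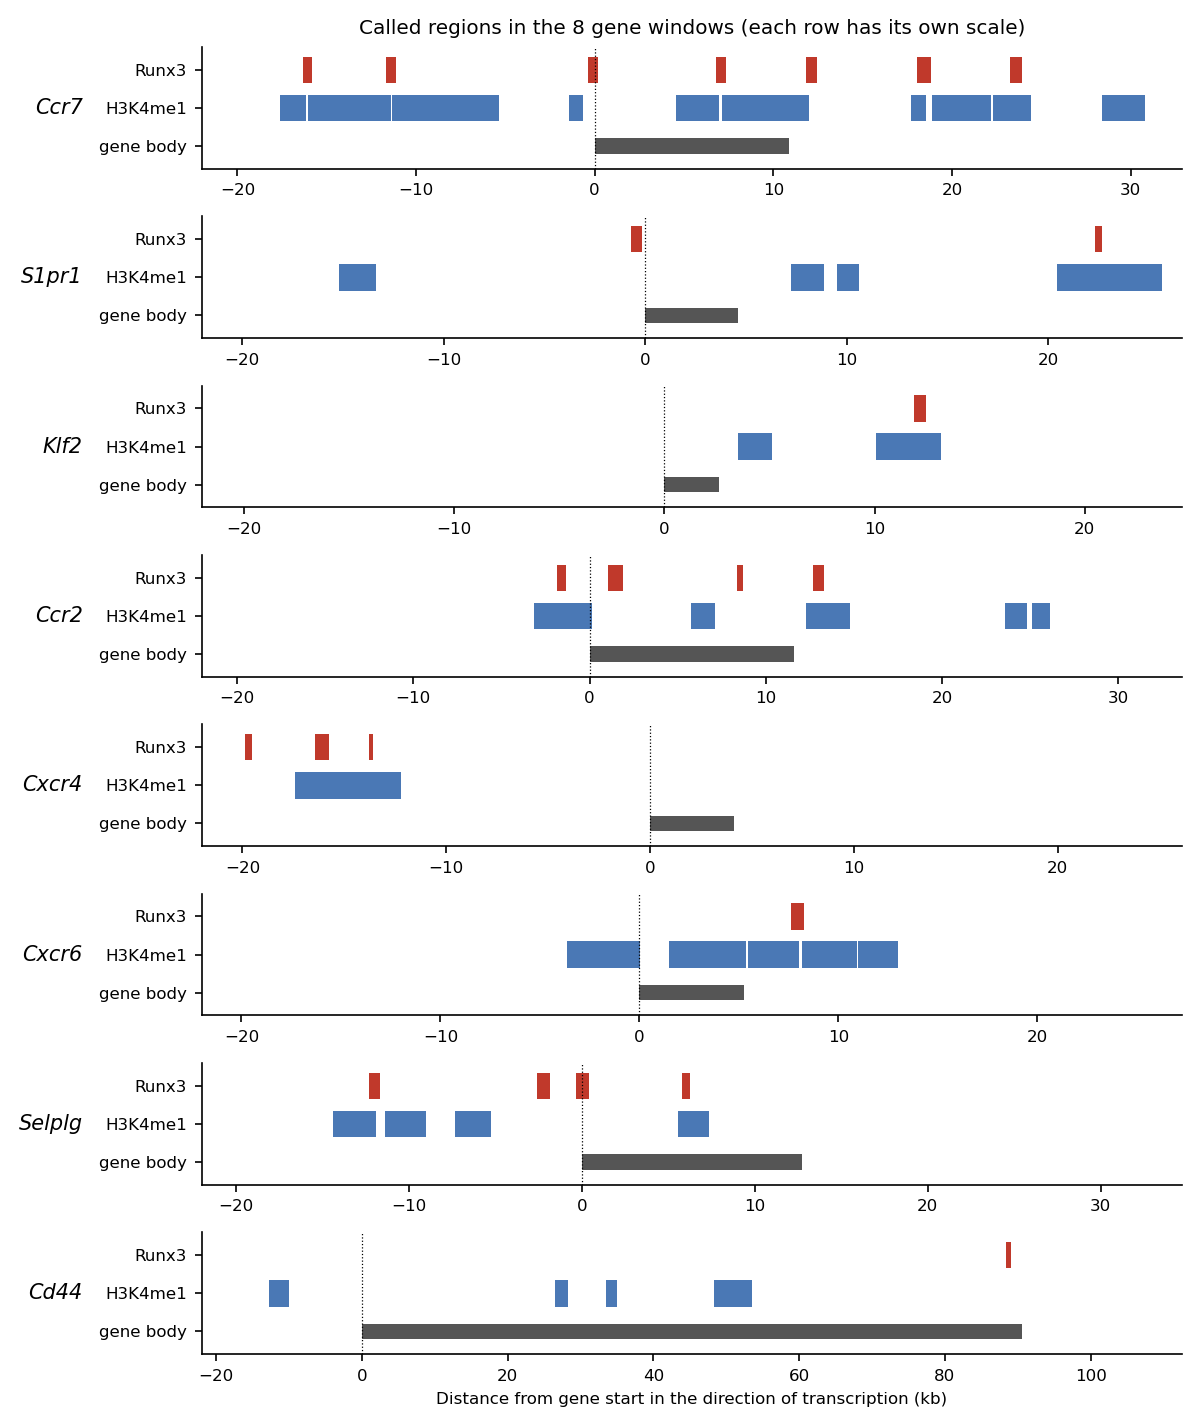
Each row is 1 gene, drawn to its own scale, with distance from the gene start (dotted line) in kb in the direction of transcription on the x axis. Red boxes are Runx3-bound regions, blue boxes are H3K4me1-marked regions and grey boxes are gene bodies. Ccr7 shows 7 red and 11 blue boxes on both sides of its start, Cxcr4 shows 3 red boxes that all lie upstream, and Cd44 shows 1 red box near the far end of the gene.

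Ccr7 (ENSMUSG00000037944.8, chr11:99005510-99016391, minus strand, 10.9 kb) encodes the lymph node homing receptor and had the most Runx3-bound regions per length of window of the 8 genes, 13.8 per 100 kb, spaced 4.67 to 11.3 kb apart. Regions 1 (chr11:99032243-99032705) and 2 (chr11:99027520-99028078) lay 16.1 and 11.4 kb upstream of the start in intergenic sequence. Region 3 (chr11:99016226-99016785) was centred 0.114 kb upstream of the start and overlapped the 5′UTR and coding sequence of the first exon. Region 4 (chr11:99009021-99009588) was intronic, 7.09 kb downstream of the start. Regions 5 (chr11:99003932-99004566), 6 (chr11:98997577-98998355) and 7 (chr11:98992484-98993151) lay beyond the gene end, 12.1, 18.4 and 23.6 kb downstream of the start. No other annotated gene overlapped this window, and the nearest protein-coding gene start of each region was that of Ccr7.

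The start region alone overlapped no H3K4me1 among the Ccr7 regions, and 1.29% of all protein-coding gene starts lay inside an H3K4me1-marked region. All the other 6 Runx3-bound regions of Ccr7 overlapped H3K4me1, over 28.3% of the width of region 5 and 100.0% of region 7, with regions 1, 2, 4 and 6 in between. Region 3 overlapped none and sat in an unmarked interval of 5215 bp over the start, 259 bp from the nearest H3K4me1-marked region. The 11 H3K4me1-marked regions were 799 to 6000 bp wide, and 7 of them held Runx3. The widest (chr11:99021721-99027720, 6000 bp, intergenic) lay 5330 to 11329 bp upstream and ended within Runx3-bound region 2.

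At several Ccr7 regions, Runx3 lay across a break between neighbouring H3K4me1-marked regions. Region 1 spanned a gap of 76 bp, region 2 one of 57 bp and region 4 one of 149 bp, and region 6 reached 238 bp into a gap of 310 bp. The same was seen in 2 regions of other genes, Cxcr6 region 1, which spanned a gap of 140 bp, and Selplg region 1, which reached 203 bp into a gap of 514 bp. Of the 23 regions, 6 (26.1%, interval 12.5 to 46.5%) reached into a gap of under 1 kb, compared to 11.8% of all Runx3-bound regions. Intervals here are 95% Wilson intervals, which cover counting error among regions only, and 4 of the 6 regions share 1 locus. That locus is Ccr7, and only 2 such regions came from all the other genes. The share is thus set largely by Ccr7 and is no trait of the 8 genes as a set. Of the 21 RUNX motifs in these 6 regions, 8 touched the gap. In Ccr7 region 2 this was 1 of 4, the TGTGGT of the stretch shown above. Neither the share of bases in the gaps nor the same count over the whole list is given, so no excess can be read from this. What gives rise to these breaks was not tested.

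**Figure D3:**
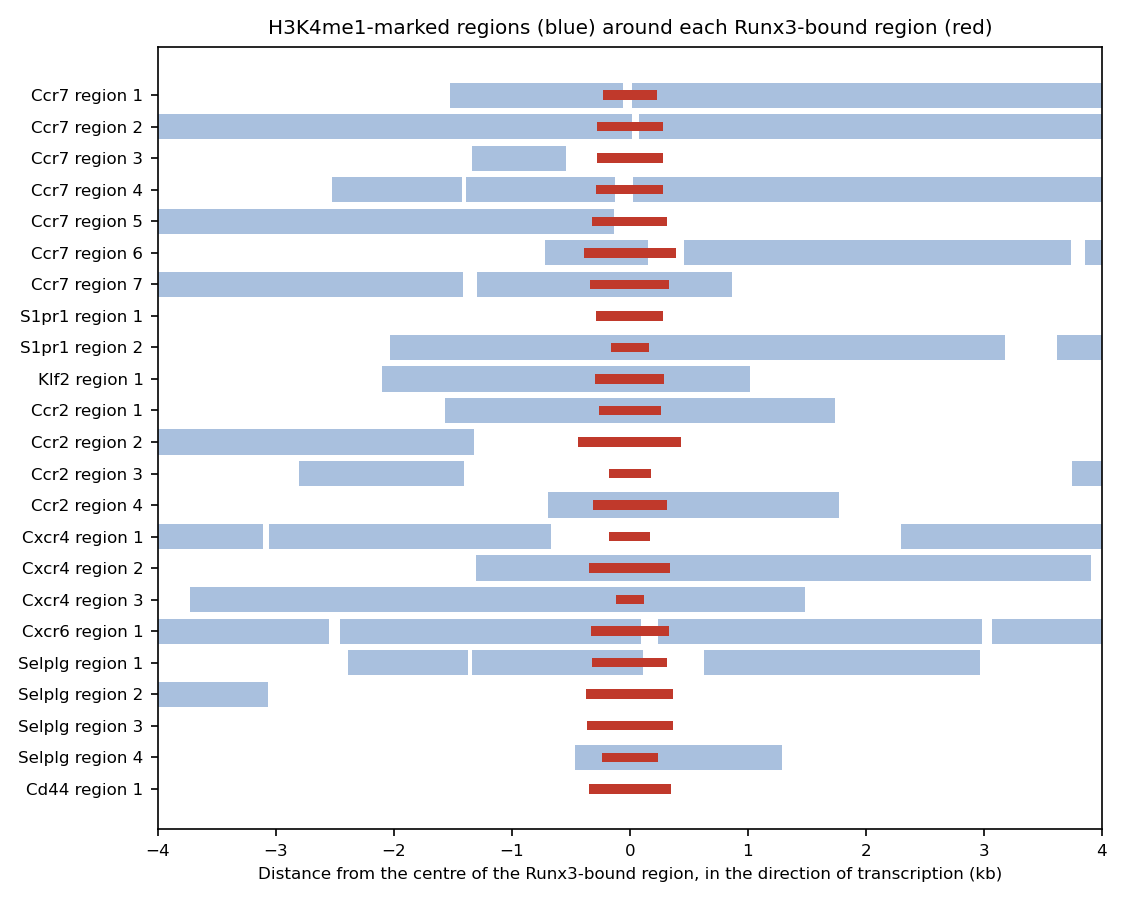
Each row is 1 Runx3-bound region (red bar, to scale), centred at 0, with distance in kb along the direction of transcription on the x axis, and blue bars are H3K4me1-marked regions within 4 kb, in the window or beyond it. In Ccr7 regions 1, 2 and 4 and Cxcr6 region 1, the red bar crosses a narrow white gap between blue bars, whereas 8 rows, such as Ccr7 region 3 and Cd44 region 1, have no blue under the red bar.

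S1pr1 (ENSMUSG00000045092.6, chr3:115413351-115417973, minus strand, 4.62 kb), the egress receptor, had a start region and a remote one. Region 1 (chr3:115418116-115418684) was centred 0.427 kb upstream of the start. It lay in a non-coding exon of the pseudogene Gm9889, which is read in the opposite direction from a start 0.095 kb from that of S1pr1, so the region cannot be assigned to one of the pair. It did not overlap H3K4me1, the nearest mark being 7352 bp away, and 20557 bp around the start were unmarked. Region 2 (chr3:115395340-115395659) was intergenic, 22.5 kb downstream of the start, and wholly inside the widest H3K4me1-marked region of the window (5210 bp). The remaining 3 H3K4me1-marked regions held no Runx3.

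Klf2 (ENSMUSG00000055148.7, chr8:74842932-74845555, plus strand, 2.62 kb), the regulator of egress genes, had 1 Runx3-bound region (chr8:74854800-74855385), intergenic and 12.2 kb downstream of the start. It was wholly inside an H3K4me1-marked region of 3125 bp. The second H3K4me1-marked region of the window, 1630 bp wide, began 3490 bp downstream of the start and held no Runx3. Up to this mark there was an unmarked interval of 25791 bp over the start. When the window was widened to 50 kb on each side, Klf2 had 8 Runx3-bound and 16 H3K4me1-marked regions, the largest gain among the 8 genes, but the wider window takes in more of its neighbours.

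Ccr2 (ENSMUSG00000049103.6, chr9:124016689-124028296, plus strand, 11.6 kb) encodes the receptor for CCL2 and had 4 Runx3-bound regions, 3.06 to 7.06 kb apart. Region 1 (chr9:124014849-124015376) was intergenic, 1.58 kb upstream of the start, and wholly inside the H3K4me1-marked region of 3306 bp that also covered the start. Region 2 (chr9:124017732-124018605) lay over the 5′UTR, 1.48 kb downstream, and at 874 bp was the widest of the 23. Region 3 (chr9:124025051-124025407) was intronic and 8.54 kb downstream.

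The 2 regions inside the Ccr2 gene body did not overlap H3K4me1, and the 2 outside it did. Region 4 (chr9:124029364-124029985) lay 13.0 kb downstream in intergenic sequence, and was wholly marked. This window also holds other annotated transcript sequence, so regions beyond the gene end cannot be assigned to Ccr2 by position. The share of 32-base words found once in the genome, a proxy for what uniquely aligned reads can reach, was 82.1% in the Ccr2 window, the lowest of the 8 (up to 96.8% at Cd44), and its part in the counts was not tested.

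Cxcr4 (ENSMUSG00000045382.6, chr1:130484776-130488870, minus strand, 4.09 kb), the CXCL12 receptor, had 3 Runx3-bound regions, all intergenic and all upstream. They were centred 19.7 kb (chr1:130508416-130508760), 16.1 kb (chr1:130504645-130505330) and 13.7 kb (chr1:130502450-130502685) from the start. Regions 2 and 3 were wholly inside the only H3K4me1-marked region of the window (chr1:130501078-130506293, 5216 bp), and region 1 lay outside it, 494 bp from a further marked region beyond the window. The start and the gene body had neither Runx3 nor H3K4me1, in an unmarked interval of 53427 bp. No other annotated gene overlapped this window. Region 3, with 236 bp, was the narrowest of the 23.

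Cxcr6 (ENSMUSG00000048521.7, chr9:123715595-123720872, plus strand, 5.28 kb), the CXCL16 receptor, lies wholly inside Fyco1, an autophagy adaptor gene on the opposite strand, so regions in its window cannot be assigned to one of them. The single Runx3-bound region (chr9:123723200-123723863) lay in a Fyco1 intron, 7.94 kb downstream of the Cxcr6 start and nearer to it than to any other protein-coding start. H3K4me1 overlapped 78.9% of its width. The 5 H3K4me1-marked regions were 1997 to 3888 bp wide and ran from 3618 bp upstream to 13004 bp downstream, and the first covered the start.

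Selplg (ENSMUSG00000048163.8, chr5:114267807-114280510, minus strand, 12.7 kb), which encodes the selectin ligand PSGL-1, had 4 Runx3-bound regions, 2.23 to 9.79 kb apart. Region 1 (chr5:114292203-114292836) lay 12.0 kb upstream of the start, over the 3′UTR of Coro1c and 0.091 kb from the start of the non-coding transcript Gm17122, with H3K4me1 over 68.0% of its width. By position, this region cannot be assigned to one of the genes, though it is counted among the 4. Region 2 (chr5:114282364-114283100) was intergenic, 2.22 kb upstream. Region 3 (chr5:114280134-114280862) covered the start itself, its centre lying 0.012 kb downstream in the 5′UTR. Region 4 (chr5:114274239-114274713) was intronic, 6.03 kb downstream and wholly marked.

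The Selplg regions nearest to the start, 2 and 3, did not overlap H3K4me1, the mark lying 2700 and 4938 bp away, while the remote regions 1 and 4 did. The unmarked interval over the start was 10856 bp. The 5 H3K4me1-marked regions, 1016 to 2343 bp wide, were the narrowest set of any of the 8 genes by their widest member.

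Cd44 (ENSMUSG00000005087.10, chr2:102651298-102741822, minus strand, 90.5 kb), the hyaluronan receptor and a marker of activated and memory T cells, had 1 Runx3-bound region (chr2:102652777-102653467) in its 3′UTR, 88.7 kb downstream of the start. It did not overlap H3K4me1, and 34889 bp separated it from the nearest mark, the longest such distance among the 23 regions. None of the 4 H3K4me1-marked regions, 1 upstream and 3 inside the gene, held Runx3. The widest of these (chr2:102688356-102693492, 5137 bp) lay over a coding exon. Cd44 was thus the only one of the 8 genes without any overlap between the lists.

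Across the 8 genes, 13 of the 23 Runx3-bound regions were intergenic, 4 intronic, 4 over a UTR, 1 over a coding exon and 1 over a non-coding exon. Upstream of the start lay 10 and downstream 13. Neither split is given for the whole list, so no preference can be read from them. The centre was under 1 kb from an annotated transcript start in 4 (17.4%, interval 6.98 to 37.1%), compared to 26.3% of all Runx3-bound regions. A Runx3-bound region was centred under 1 kb from the start of 3 of the 8 genes, Ccr7, S1pr1 and Selplg, which was the case at 8.84% of all protein-coding gene starts. None of these 3 regions overlapped H3K4me1, and no such share is given for all Runx3-bound regions near starts. Conversely the starts inside an H3K4me1-marked region were those of Ccr2 and Cxcr6, 2 of 8 compared to 1.29% of all starts, and neither had Runx3 within 1 kb.

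Overlap with H3K4me1 was found at 15 of the 23 regions (65.2%, interval 44.9 to 81.2%). Among all Runx3-bound regions the share was 57.3%, which lies inside this interval. Of these 15, 8 were wholly and 7 partly covered. The 8 unmarked regions were Ccr7 3, S1pr1 1, Ccr2 2 and 3, Cxcr4 1, Selplg 2 and 3, and Cd44 1. Of them, 5 lay in the body of one of the 8 genes, which held 7 of the 23 regions. The same split is not given for the whole list, so no contrast by gene body can be read from these counts. Marked and unmarked regions had median widths of 586 and 630 bp and median GC contents of 51.2 and 51.0%. Runx3 was held by 16 of the 37 H3K4me1-marked regions (43.2%), compared to 29.2% in the whole list. Of these 16, 7 were at Ccr7. Every one of the 8 windows also held Runx3, compared to 34.2% of all protein-coding genes. No excess can therefore be read from this share. The median width of the 37 was 2078 bp, against 1592 bp for the whole list.

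The cover by H3K4me1 around the 23 regions was then followed by position, without a test. It lay over the centre of 12 (52.2%, all 46.3%), and at 1 kb to the left on the plus strand it also lay over 12 (52.2%, all 40.2%), and at 1 kb to the right over 15 (65.2%, all 40.6%). At 5 kb to the left it lay over 9 (39.1%, all 12.5%) and at 5 kb to the right 8 (34.8%, all 13.0%). The wide cover at Ccr7, which contributes 7 of the 23 regions, enters these shares, and regions of 1 locus are not independent.

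RUNX motifs were found in 20 of the 23 regions (87.0%, interval 67.9 to 95.5%), and in 92.6% of all Runx3-bound regions. The regions without one were Ccr7 1, Ccr2 4 and Selplg 4, and all of these overlapped H3K4me1. All 8 unmarked regions held the motif, as did 12 of the 15 marked ones. The same split is not given for the whole list, so no contrast by mark can be read from these counts. At least 2 motifs occurred in 16 regions (69.6%, all 67.3%), and 17 (73.9%, all 78.7%) had a motif in the central 200 bp. The nearest motif lay within 50 bp of the centre in 17. No value of the whole list is given for this distance. For each of the other motif shares here the value of the whole list lay inside the Wilson interval.

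The number of motifs per region ranged up to 6, in Selplg region 1, with a median of 2 both here and in the whole list. Selplg region 2 had 5, and Ccr7 regions 2 and 4, S1pr1 region 1, Cxcr6 region 1 and Cd44 region 1 had 4 each. In Ccr7 region 2 a pair of TGTGGC motifs was separated by 1 bp, and in Selplg region 1 the smallest gap was 0 bp, as the sequences above show. In S1pr1 region 1 it was 5 bp, in Cd44 region 1 it was 7 bp and in Ccr7 region 3 it was 12 bp.

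The 57 motifs comprised 26 TGTGGT and 23 TGTGGC, with 4 TGCGGT and 4 TGCGGC besides. The TGTGGT kind made up 45.6% of them, against 52.0% in all Runx3-bound regions. By region, TGTGGT was found in 16 (69.6%, all 69.6%) and TGTGGC in 13 (56.5%, all 45.7%). TGCGGT occurred in 3 (13.0%, all 20.8%) and TGCGGC in 3 (13.0%, all 16.3%). S1pr1 region 1 alone held both TGCGGT and TGCGGC, 2 of the 4 of each kind, and no other variant. Its GC content of 59.6% came next to the 60.2% of Ccr7 region 4, the highest of the 23.

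Motifs of other factor families were searched in the same way, and their letters may overlap one another. The ETS motif, AGGAAA or AGGAAG or CGGAAA or CGGAAG, occurred in 21 regions (91.3%, all 88.9%). The AP-1 motif, TGACTCA or TGAGTCA, occurred in 3 (13.0%, all 13.5%), namely Ccr7 region 1, Klf2 region 1 and Selplg region 1. The T-box motif GGTGTGA occurred in 5 (21.7%, interval 9.66 to 41.9%, all 11.3%), namely Ccr7 region 6, S1pr1 region 2, Ccr2 region 4 with 2 copies, Cxcr4 region 2 and Cd44 region 1. A match describes letters and is not evidence of binding by these factors.

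Modules, meaning pairs of motifs of which one is RUNX and the gap is 50 bp or less, were counted over the whole region. A RUNX-RUNX module was found in 11 regions (47.8%, interval 29.2 to 67.0%), compared to 37.4% of all. Every one of the 8 genes but Klf2 had such a region. An ETS-RUNX module was found in 11 (47.8%, all 57.4%), and an AP-1-RUNX module in 2 (8.7%, all 5.78%), Klf2 region 1 and Selplg region 1. The share in the whole list lay inside the Wilson interval for each of these modules.

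To show how common such letters are nearby, stretches of equal width were taken 5 kb to each side of every region, without removing those that touch another called region. Of the 46 stretches around the 23 regions, 34 (73.9%) held a RUNX motif and 7 (15.2%) a RUNX-RUNX module. Around all Runx3-bound regions these shares were 58.9 and 8.34%. The T-box motif occurred in 17.4% of the 46 stretches and ETS in 84.8%, against 7.75 and 75.4% around all regions. At least 1 RUNX motif was therefore found in 87.0% of the 23 regions and 73.9% of their flanks, and the RUNX-RUNX module in 47.8 and 15.2%.

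**Figure D4:**
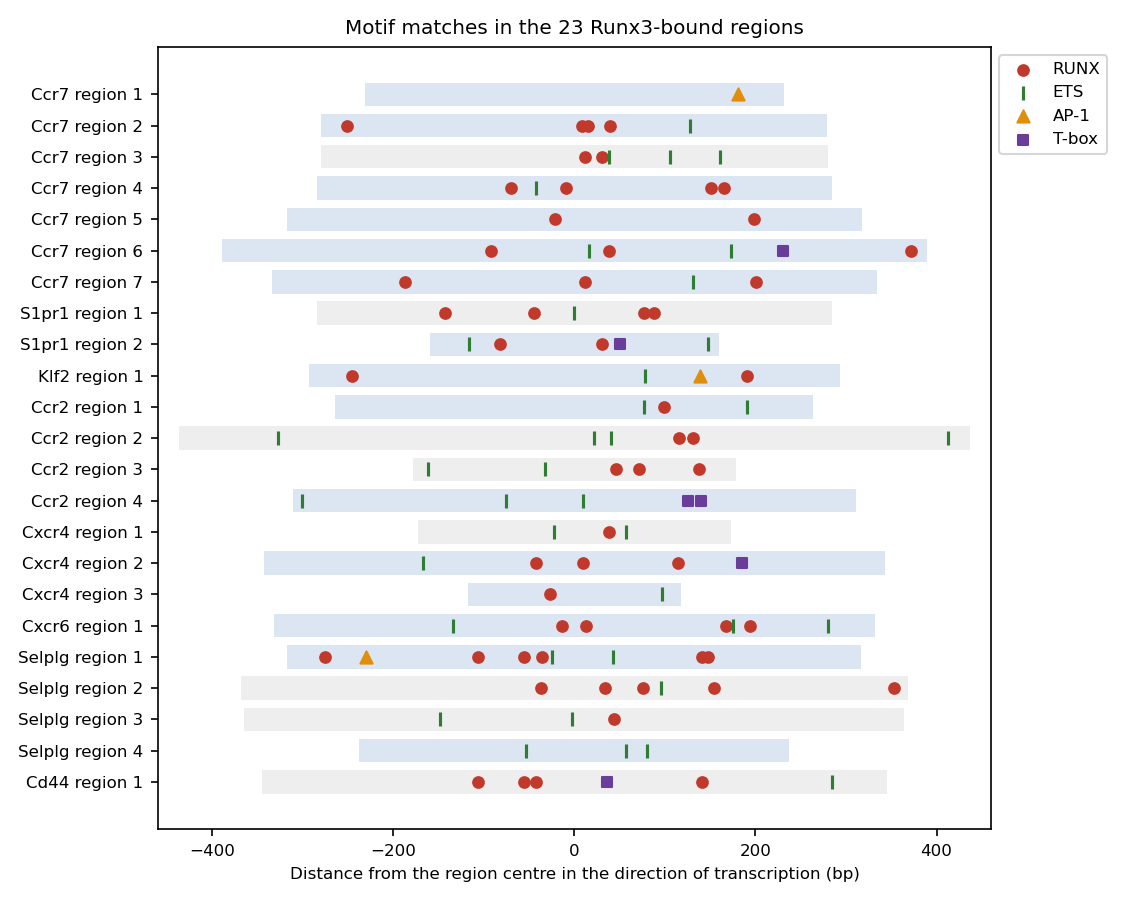
Each row is 1 of the 23 Runx3-bound regions, drawn as a bar from its first to its last base, blue where it overlaps H3K4me1 and grey where it does not, with distance from its centre in bp in the direction of transcription on the x axis. Red circles are RUNX, green ticks ETS, orange triangles AP-1 and purple squares T-box motifs. Ccr7 region 1, Ccr2 region 4 and Selplg region 4 have no red circle, and Selplg region 1 has 6.

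Other genes of lymphocyte traffic were counted with the same windows. Of 43 genes, 30 had a Runx3-bound region, 35 had an H3K4me1-marked region and 7 had neither, with medians of 1 and 3. Over all protein-coding genes the shares were 34.2 and 39.4%, and both medians were 0. This list too was chosen with earlier results known, so no excess can be read from it. The chemokine receptors came to 18, of which 13 had Runx3 and 15 had H3K4me1. Cx3cr1, the fractalkine receptor of effector cells, had 4 Runx3-bound and 6 H3K4me1-marked regions. Cxcr5, the receptor of follicular homing, had 3 and 10, and Cxcr3, a receptor of type 1 inflammation on the X chromosome, had 2 and 2. Cxcr2, Cxcr7 and Darc had neither.

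Of the 9 egress and positioning genes, 7 had Runx3 and 7 had H3K4me1. Gpr183, an oxysterol receptor, had 3 and 7 with 50.2% of its window marked, S1pr4 had 3 and 5, and S1pr5 had 2 and 2, while S1pr3 had neither. Cd69, whose product pulls S1PR1 from the cell surface, had 2 and 4. Of the 11 genes of selectins and enzymes of their ligands, 7 had Runx3 and 9 had H3K4me1. Tpst2, a tyrosine sulfotransferase that acts on PSGL-1, had 5 and 10, and Fut7, the fucosyltransferase of selectin ligands, had 1 and 5. Windows of neighbouring genes can share regions. Of the 5 homing regulators, 3 had Runx3 and 4 had H3K4me1, with 4 and 9 at Klf13, 1 and 6 at Foxo1 and neither at Klf4.

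No gene of this wider list reached the 7 Runx3-bound regions of Ccr7, and its 11 H3K4me1-marked regions were approached by the 10 of Cxcr5 and of Tpst2. The window of Gpr183 came closest to the 56.8% H3K4me1 cover of Ccr7.

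**Figure D5:**
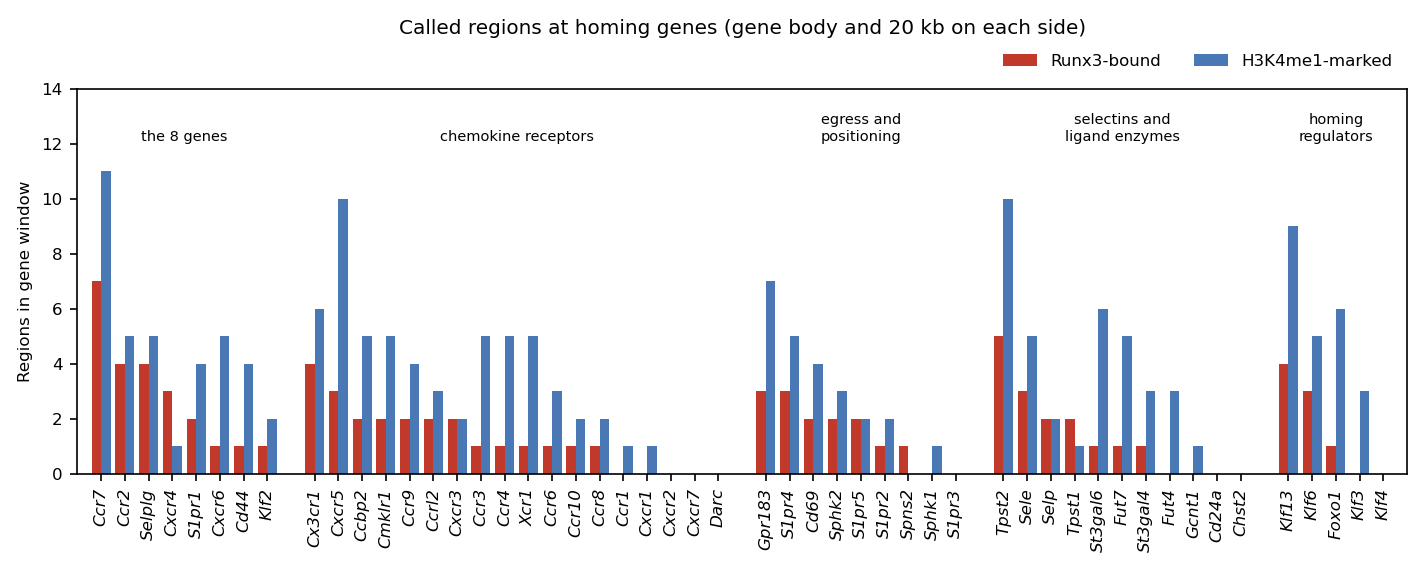
Bars give the number of Runx3-bound (red) and H3K4me1-marked (blue) regions in the window of each gene, the gene body with 20 kb on each side, for the 8 genes at the left and 43 other homing genes by class. Ccr7 has the tallest red bar, at 7, and the tallest blue bar, at 11, and genes without bars have 0 regions.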

How the data were processed

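The deposited files were 2 lists of peak positions, in which the authors gave the start and end in bp of each peak on mm9, with 0 columns of height, score or p-value. Per the methods, the authors aligned reads with ELAND, kept those aligned uniquely, joined the repeats of each antibody and ran MACS with the NIS reads as control, the larger set being scaled to the smaller. The protocol speaks of repeats for both antibodies, whereas the labels hold 1 anti-H3K4me1 library. Such calling favours unique sequence, and the number of peaks depends on the read depth, which the study's methods state and the lists do not hold.

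Gene bodies were taken from GENCODE vM1 on the same assembly, NCBIM37, and extended by 20 kb. Positions count from 1. The 8 genes and the lists of other homing genes were chosen with earlier results of these data known, and all regions at the 8 genes are named. Ccrl1 was left out because 2 annotated genes bear the name, and some listed genes are not reported here. Motifs were searched in the genome sequence on both strands. Uniqueness was the share of 32-base words found once in the genome. Functions were tested on simulated data. Tools were pysam 0.24.0, numba 0.67.0, pandas 2.3.3, NumPy 2.4.6, SciPy 1.17.1 and matplotlib 3.10.9 under Python 3.11.15. Alternatives were other extensions, overlap definitions, merging, motifs and starts.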

Additional observations from a re-analysis of the deposited data

How the results depend on the processing

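The extension of the gene bodies set the counts most, since a narrower window holds fewer bases. With no extension, 5, 10 and 50 kb in place of 20 kb, the 23 Runx3-bound regions became 7, 13, 15 and 44. The 37 H3K4me1-marked regions became 11 with no extension, 18 with 5 kb and 86 with 50 kb, and 24 when those closer than 1 kb were merged. Without extension, 4 genes rather than 8 had Runx3 and 5 rather than 8 had H3K4me1. The share of Runx3-bound regions overlapping H3K4me1 then fell from 65.2% to 28.6% of 7 regions. Shares over all protein-coding genes are given for 20 kb only, so the comparison with all genes was not followed across extensions. A longer RUNX motif of 7 bases, TGTGGTT or TGCGGTT, occurred in 26.1% of regions rather than 87.0%. Of 34 alternative values for 7 results, the other 22 stayed within 1.5 times the reported count or inside the counting interval of the share. No paired analysis was possible because peaks were called once per antibody on joined repeats, and no replicate could be left out for the same reason. The lists give no reads per region, so a gene without a called region may still be bound at a level under detection.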
